A study of Homo sapiens with 4 samples.

Results

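Replicate 2 was compared with replicate 1 across all genes in 4 RNA-sequencing libraries of SAS cells, a human squamous carcinoma line of the tongue. The pair of replicate 2 libraries and the pair of replicate 1 libraries were taken by the replicate number in their labels, and they are all 4 libraries of the series. In each pair, 1 library came from control cells, whose shRNA targets luciferase (Ctrl), and 1 from cells whose shRNA targets the double-stranded RNA binding protein STAU1 (shSTAU1). The shRNA was kept as a block, so the comparison reads what differed between replicates within both arms and not the knockdown. All 4 libraries carried an shRNA, and the shRNAs were delivered with pLKO vectors. The labels give the replicate number and do not say whether it marks a culture, a day, an infection or a library preparation, which cannot be told apart here. The labels also name a mouse fibroblast line, while the organism, the growth protocol and the design give human SAS cells.

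Cells in culture respond to density, growth factors, nutrients, oxygen and temperature. Dividing cells transcribe replication and mitotic genes in waves through the cycle. Protein-folding stress acts through heat shock factor, cytokine and adhesion genes through NF-kappa-B, and squamous cells that stop dividing turn on differentiation genes. These programmes are described here by named genes, in the order of their roles.

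Libraries were made with an exome capture kit for RNA, and the authors deposited whole-number counts for 67008 genes. The Ctrl libraries held 33009118 counts in replicate 1 and 32206655 in replicate 2, and the shSTAU1 libraries held 35180221 and 36301574. Of these genes, 42204 had no read and 14303 had enough counts to be tested, with 99.9% of all counts. Counts were compared within each arm to see whether its libraries could be 1 library. The chi-square, divided by its degrees of freedom, was 23.4 in the Ctrl pair and 56.4 in the shSTAU1 pair, and the libraries were counted as separate samples. Levels are given below as CPM, counts scaled to a common library total with TMM factors, in the order Ctrl replicate 1, Ctrl replicate 2, shSTAU1 replicate 1 and shSTAU1 replicate 2. Differences are log2 ratios of replicate 2 to replicate 1, so that a value above 0 is higher in replicate 2.

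STAU1 itself was measured at 249, 251, 41.6 and 41.5 CPM. The knockdown was thus of the same depth in both replicates, at 16.6% of Ctrl (log2 difference between the arms -2.59, SE 0.12, adjusted p = 3.28e-94 by the quasi-likelihood test of edgeR). The log2 difference between replicates was 0.0052 (SE 0.12, adjusted p = 0.99 from the same test). SNX5, a sorting nexin and the host gene of the circular RNA under study, had 395, 429, 364 and 397 CPM, and its replicate difference of 0.12 did not pass (adjusted p = 0.6, edgeR). ADAM10, a protease that sheds membrane proteins, had 439, 349, 287 and 204 CPM. It was lower in replicate 2 in both arms, at -0.33 in Ctrl and -0.49 in shSTAU1, and the edgeR fit gave -0.41 (SE 0.11, adjusted p = 0.00553). This call was lost with DESeq2.

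Replicate 2 and replicate 1 differed at 1112 of the 14303 genes (7.77%) at an adjusted p under 0.05, with 448 genes higher (3.13%) and 664 lower (4.64%) in replicate 2. Of 168 genes called by edgeR among those described here or covered by the naming rule, 80 did not pass with DESeq2 and 8 had no adjusted p. The shRNA term of the edgeR fit called 4087 genes (28.6%). Of the 1112 genes, 1100 moved in the same direction in both arms and 12 in opposite directions, against a same-direction share of 63.9% over all genes tested. The replicate term averages the differences of the arms, so a call favours genes whose arms moved alike, and the first count is a description. The median size among called genes was 0.61, and 252 genes differed at least 2-fold, 69 of them higher and 183 lower. The median over all genes was -0.00071.

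The differences were larger in the shSTAU1 arm than in the Ctrl arm. The median absolute log2 difference over all genes was 0.21 in Ctrl and 0.28 in shSTAU1, from 1 library against 1 in each arm and without a test. Among the 448 higher genes the median was 0.41 in Ctrl and 0.61 in shSTAU1, and 330 of them differed more in the shSTAU1 arm. Among the 664 lower genes the medians were -0.53 and -0.85, and 524 differed more in the shSTAU1 arm. Across genes, which are not independent replicates, the arms' differences correlated with a Pearson coefficient of 0.23 over all 14303 genes and of 0.59 over the 4830 genes above a log2 CPM of 5. Of the total variation between the 4 libraries, the replicate term took 29.3%, the shRNA term 52.3% and the part in which the arms differed 18.3%. Over the genes above a log2 CPM of 5 these shares were 24.6%, 68.2% and 7.20%.

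**Figure D1:**
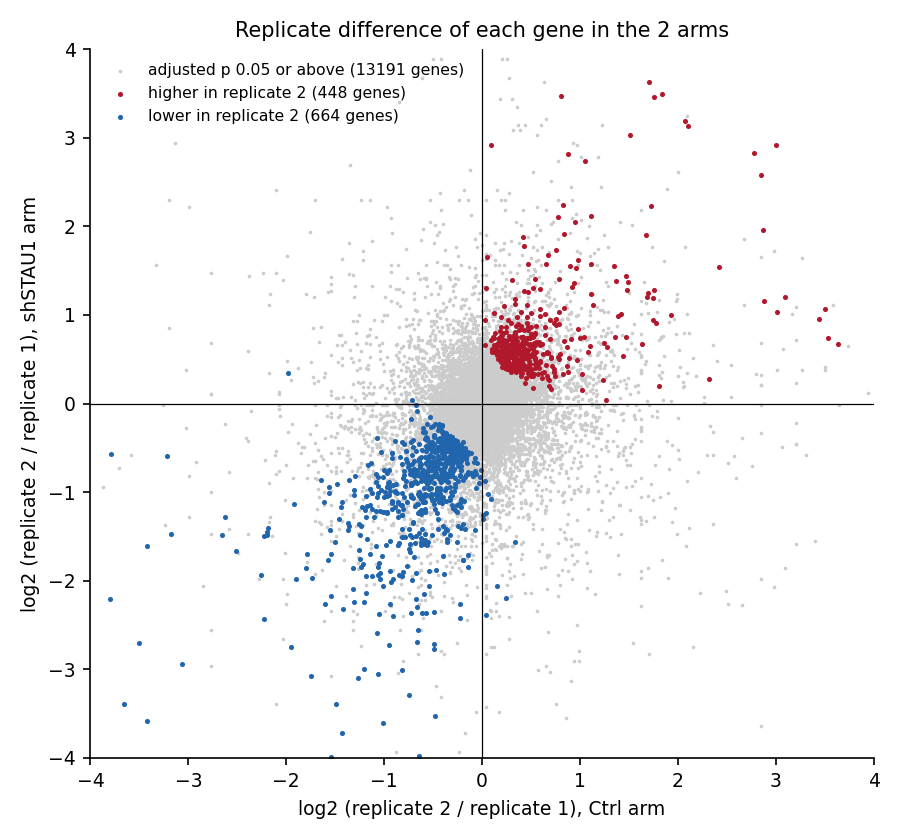
Each point is 1 of the 14303 tested genes, with the log2 ratio of replicate 2 to replicate 1 in the Ctrl arm on the x axis and in the shSTAU1 arm on the y axis. The 448 higher genes (red) lie mostly in the upper right and the 664 lower genes (blue) mostly in the lower left, and 81 genes fall outside the plotted range of 4 on either axis.

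These calls rest on the shRNA block and on a spread that edgeR shared across all genes, since 4 libraries leave 1 residual degree of freedom. That spread comes from the part in which the arms' replicate differences disagreed. Without the block edgeR called 0 genes (470 at an unadjusted p under 0.05), and DESeq2 with the block called 249 (1.74%), all of them among the 1112. Shares given for DESeq2 are of all 14303 genes, of which 10975 had an adjusted p there. A gene without one counts as not called.

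The heat shock genes had the largest share of higher genes among the lists described here. Heat shock factor drives chaperones that refold and hold client proteins. The list held 21 genes, of which 5 had 0 counts in every library. Of 16 measured members, 11 were higher in replicate 2 and 0 lower, against 3.13% and 4.64% of all genes, and the median log2 difference was 0.46 (0.29 in Ctrl and 0.65 in shSTAU1). The summed level of the list was 16908, 20830.3, 17256 and 28200.5 CPM. Both replicate 2 libraries thus lay above both replicate 1 libraries.

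HSPA8 (ENSG00000109971, chromosome 11, 123057489 to 123063230 on hg38, minus strand), the constitutive HSP70 of the cytosol, had 1780.0, 3013, 2045 and 3951 CPM. Its log2 difference was 0.85 (SE 0.11, adjusted p = 5.15e-13, edgeR), with 0.76 in Ctrl and 0.95 in shSTAU1. HSPH1, the HSP110 exchange factor that recharges HSP70, had 365, 549, 347 and 729 CPM and a log2 difference of 0.83 (SE 0.11, adjusted p = 2.72e-11). DNAJA1 and DNAJB1, J-domain partners of HSP70, were higher by 0.60 and 0.62, and in each of them every replicate 2 library exceeded its arm's replicate 1 library. HSP90AA1, the inducible cytosolic HSP90, had 5921, 7274, 5834 and 10919.6 CPM. Its difference of 0.60 (adjusted p = 9.12e-07) was 0.30 in Ctrl and 0.90 in shSTAU1, and the call was lost with DESeq2. The cochaperones STIP1, AHSA1 and FKBP4, which load or activate HSP90, were higher by 0.47, 0.45 and 0.44. HSPD1, the mitochondrial chaperonin, was higher by 0.46, and HSP90AB1 and HSPA4L by 0.30 and 0.52. The remaining measured members did not pass, and BAG3 and HSPB1, both strongly heat-inducible, had values of -0.065 and -0.21. With DESeq2, 7 members were higher, against 0.601% of all genes.

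Chaperones of the endoplasmic reticulum, which answer to the unfolded protein response, were a separate list, and 0 of 19 members passed in either direction with edgeR and 0 with DESeq2, while 2 had an unadjusted p under 0.05 in edgeR. Its median was 0.047, and the most abundant member HSP90B1 did not pass (log2 difference 0.059, adjusted p = 0.828). Of 29 proteasome genes, PSMC3 and PSMC6, ATPases of its base, were higher (0.38 and 0.34), a share of 6.9% called beside 7.77% of all genes, and the list's median was 0.16, at 0.019 in Ctrl and 0.33 in shSTAU1. Neither proteasome gene passed with DESeq2.

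Because heat shock factor binds inverted repeats of GAA, the promoter of the gene with the largest heat shock difference is shown. The element was searched as GAANNTTCNNGAA on both strands in windows from 250 bases before to 50 bases after each RefSeq start site (GRCh38.p14). It was found in 133 of 27305 promoters (0.487%), in 33 of the 9968 tested genes with a window (0.331%), and in 2 of the 10 higher heat shock genes with a window, HSPA8 and DNAJA1. A match is a description of the letters and not a shown binding site. The part of the HSPA8 window shown (chr11:123062154-123062386, minus strand) holds 2 matches, in capitals.
HSPA8: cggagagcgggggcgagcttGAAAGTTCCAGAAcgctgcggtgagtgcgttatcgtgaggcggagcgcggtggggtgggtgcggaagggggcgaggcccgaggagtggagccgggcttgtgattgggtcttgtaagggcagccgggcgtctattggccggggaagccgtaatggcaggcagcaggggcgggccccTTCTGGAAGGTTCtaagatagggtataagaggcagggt

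Genes of DNA replication and mitosis that passed the test were higher in replicate 2. Of 31 measured genes of DNA replication and entry into S phase, 8 were higher and 0 lower, against 3.13% and 4.64% of all genes, with a median of 0.31, and 28 were above 0 in both arms. Of 30 genes of G2 and mitosis, 11 were higher and 0 lower (36.7% called, against 7.77% of all genes), with a median of 0.26. The medians in Ctrl and shSTAU1 were 0.21 and 0.39 for the first list, and 0.16 and 0.39 for the second. In bulk RNA, a larger share of cells in these phases and more RNA per cell cannot be told apart.

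RRM2, the regulated subunit of ribonucleotide reductase, had 172, 219.8, 179 and 352 CPM, and both replicate 2 libraries lay above both replicate 1 libraries (log2 difference 0.67, SE 0.11, adjusted p = 6.44e-07, edgeR). It was 0.36 in Ctrl and 0.97 in shSTAU1. ORC1, which licenses replication origins, had 131, 172, 122 and 182 CPM and was higher by 0.49 (adjusted p = 0.00116). UHRF1, which carries DNA methylation through replication, was higher by 0.47. TYMS of thymidylate synthesis was higher by 0.46, the phosphatase CDC25A by 0.46, the flap nuclease FEN1 by 0.44 and the polymerase subunit POLA1 by 0.33. The FEN1 and POLA1 calls were lost with DESeq2, limma-voom, library size, no filter and the length and GC correction. The helicase subunit MCM4, the most abundant member, had 530.5, 613, 645 and 846 CPM and did not pass (0.30, adjusted p = 0.0643).

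CDC20, the activator of the anaphase-promoting complex, had 156, 205, 151 and 278 CPM and a log2 difference of 0.64 (SE 0.11, adjusted p = 2.88e-06, edgeR). KIF20A, a kinesin of cytokinesis, had 70.9, 97.6, 70.7 and 118 CPM and was higher by 0.60 (adjusted p = 5.28e-05). CCNB1, the mitotic cyclin, had 223, 268, 204 and 300.3 CPM and was higher by 0.41. The Ctrl arm gave smaller values than the shSTAU1 arm in all 3, at 0.40 against 0.88 for CDC20, 0.46 against 0.74 for KIF20A and 0.27 against 0.56 for CCNB1. AURKA, PLK1, FOXM1, BIRC5, CDCA8, HMMR, ANLN and KIF2C were also higher, by 0.36 to 0.54. MKI67, the proliferation marker and the most abundant member, had 3679, 4275, 3329 and 4335 CPM and did not pass (0.30, adjusted p = 0.0511). With DESeq2, 2 mitotic and 2 replication genes passed.

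Promoters of many mitotic genes hold the cell cycle genes homology region (CHR), searched here as TTTGAA on both strands, which can share its GAA with the heat shock element. It was found in 989 of the 9968 tested genes with a window (9.92%), in 16 of the 24 measured mitotic genes with a window (66.7%) and in 5 of the 8 higher ones (62.5%). It was found in 1 of 26 replication genes. The stretches around the matches in those 5 higher genes are given as examples of the list, cut from the searched windows, with the CHR in capitals and all on the plus strand. They are CDC20 (chr1:43358778-43358946), ANLN (chr7:36389811-36389872), HMMR (chr5:163460579-163460640), CDCA8 (chr1:37692468-37692523) and PLK1 (chr16:23678835-23678890).
CDC20: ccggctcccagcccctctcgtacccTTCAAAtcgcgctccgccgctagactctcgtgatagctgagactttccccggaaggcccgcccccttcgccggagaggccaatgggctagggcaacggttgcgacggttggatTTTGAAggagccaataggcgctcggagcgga
ANLN: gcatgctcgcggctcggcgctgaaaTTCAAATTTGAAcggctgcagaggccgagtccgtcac
HMMR: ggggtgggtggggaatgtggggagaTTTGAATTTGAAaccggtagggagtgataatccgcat
CDCA8: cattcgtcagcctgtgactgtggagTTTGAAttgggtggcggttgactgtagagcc
PLK1: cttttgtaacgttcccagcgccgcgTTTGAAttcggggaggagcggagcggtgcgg

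The replication-dependent histones, whose mRNAs lack a poly(A) tail and peak in S phase, had 6 higher and 0 lower members of 51 measured, a share of 11.8% called against 7.77% of all genes. The median was -0.022 in Ctrl and 0.32 in shSTAU1. H1-1, a linker histone, had 39.3, 50.5, 64.6 and 121 CPM and was higher by 0.64 (adjusted p = 2.68e-05, edgeR). Near-identical histone copies can share reads, and 1 histone gene passed with DESeq2. The cyclin-dependent kinase inhibitor CDKN1A, a p53 target that halts the cycle, had 23.3, 15.3, 24.7 and 11.4 CPM and was lower at -0.86 (adjusted p = 4.38e-05). The p53 target list as a whole had 2 lower members of 23 (8.7% called, beside 7.77% of all genes).

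Most messenger RNAs of the mitochondrial genome were lower in replicate 2. This genome is transcribed from both strands as long precursors that are cut into 13 mRNAs for subunits of the respiratory chain and ATP synthase, 2 ribosomal RNAs and transfer RNAs. Of the 13 mRNAs, 11 were lower and 0 higher, where 4.64% of all genes were lower. All 13 were below 0 in both arms, with a median of -0.74 (-0.82 in Ctrl and -0.65 in shSTAU1). The summed level was 768, 414, 525 and 332 CPM. Here the Ctrl arm differed more than the shSTAU1 arm, unlike most called genes.

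MT-CO1, a catalytic subunit of cytochrome oxidase, had 146, 69.9, 100 and 56.3 CPM (log2 difference -0.94, SE 0.12, adjusted p = 2.67e-12, edgeR). MT-CO2 of the same enzyme had 79.8, 41.4, 56.2 and 33.4 CPM and was lower at -0.85. MT-ND4 of complex I had 199, 105, 110.2 and 74.8 CPM and was lower at -0.74 (adjusted p = 6.19e-08). In each of these 3 genes both replicate 2 libraries lay below both replicate 1 libraries. MT-ATP8 and MT-ND6 did not pass, at -0.43 and -0.48, and MT-ND6 is the only one of the mRNAs encoded on the other strand.

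The ribosomal RNAs of the mitochondrion were looked at after these values were seen. MT-RNR1, of the small subunit, had 1635, 663, 1045 and 593 CPM and was lower at -1.06 (SE 0.11, adjusted p = 6.03e-19, edgeR). MT-RNR2, of the large subunit, had 31312, 30988, 26717 and 22223 CPM and did not pass (-0.14, adjusted p = 0.456). The share of all counts on this genome was 3.43% and 3.26% in Ctrl and 2.80% and 2.25% in shSTAU1, most of it from MT-RNR2. Nuclear copies of mitochondrial DNA can take some of these reads, and how the capture probes treat these RNAs is not given in the sources used here.

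**Figure D2:**
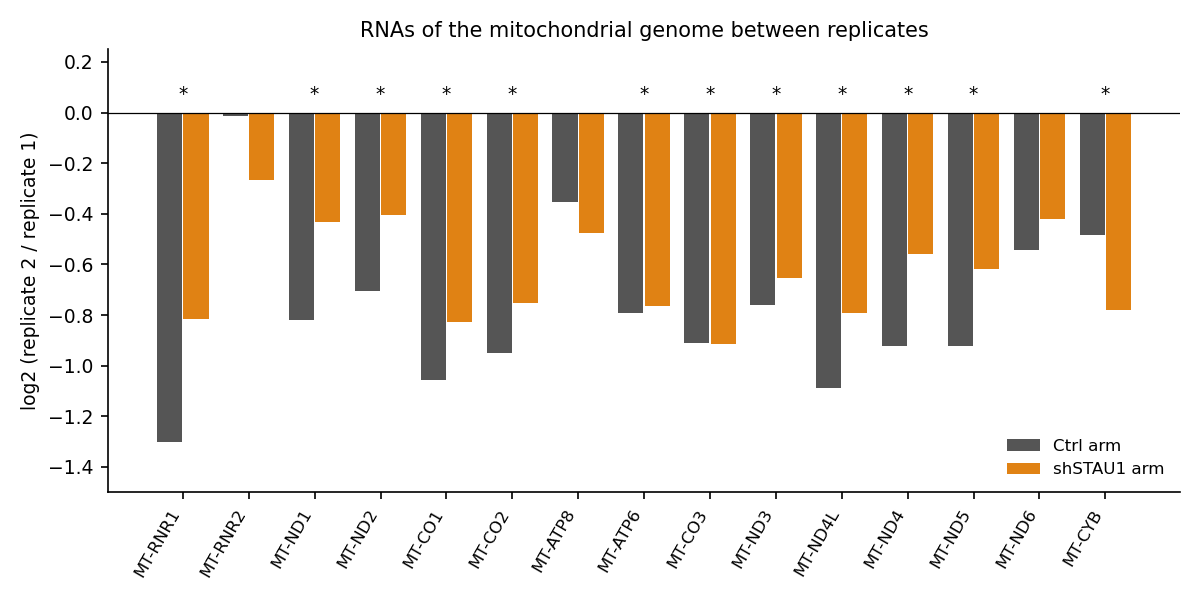
Bars give the log2 ratio of replicate 2 to replicate 1 for the 15 measured RNAs of the mitochondrial genome, in genome order, in the Ctrl arm (grey) and the shSTAU1 arm (orange), from 1 library against 1 in each arm. An asterisk marks an adjusted p under 0.05 over both arms, and MT-RNR2 stays near 0 in Ctrl beside 12 RNAs that pass.

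The nuclear genes for the same machinery had few calls. Of 72 nuclear oxidative phosphorylation subunits 1 was higher (ATP5MC1, 0.41) and 0 were lower, with a median of 0.043. Of 69 mitochondrial ribosomal proteins 3 were higher (MRPL18 by 0.57, MRPL51 by 0.50 and MRPS18C by 0.46), with a median of 0.15. Cytosolic ribosomal proteins had 1 higher (RPS26, 0.36) and 1 lower member (RPL12, -0.34) of 78. These shares of called genes are below the 7.77% of all genes. With DESeq2, 0 of the 72 and 0 of the 78 passed, and 1 of the 69 was higher. The ATP5MC1 and RPS26 calls were also lost with limma-voom, library size, no filter and the length and GC correction.

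Among cytokine and adhesion genes that NF-kappa-B drives, those that passed were lower in replicate 2. Of 24 measured members 9 were lower and 0 higher (37.5% called, against 7.77% of all genes), with a median of -0.39 (-0.40 in Ctrl and -0.086 in shSTAU1), and 7 passed with DESeq2. The summed level was 998, 659, 727 and 504 CPM.

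IL1A (ENSG00000115008, chromosome 2, 112773915 to 112784590), the interleukin-1 alpha alarmin of epithelial cells, had 201, 94.9, 119 and 64.5 CPM. Its log2 difference was -0.98 (SE 0.12, adjusted p = 7.97e-14, edgeR), at -1.08 in Ctrl and -0.89 in shSTAU1. IL1B, the secreted interleukin-1 of the same cluster, had 153, 78.6, 116 and 60.2 CPM and was lower at -0.95 (adjusted p = 8.79e-13). In both interleukins the 2 replicate 2 libraries lay below the 2 replicate 1 libraries. ICAM1, the adhesion receptor for leukocyte integrins, had 48.9, 24.4, 18.1 and 8.72 CPM and was lower at -1.03 (adjusted p = 1.91e-08), while Ctrl replicate 2 lay above shSTAU1 replicate 1. The chemokine CCL20 and the growth factor CSF2 were lower at -1.16 and -1.13, TNFAIP2 at -0.73, LIF at -0.48 and the inhibitor NFKBIA, itself a target, at -0.48. PTGS2, the inducible cyclooxygenase, had 297, 73, 37 and 48 counts, and its call rests on the Ctrl arm, with -1.98 in Ctrl and 0.35 in shSTAU1. Of 33 interferon-stimulated genes 3 were lower (PARP14 -0.65, IFIT2 -0.82 and IFIT3 -0.83), a share of 9.09% called beside 7.77% of all genes.

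Among genes of the epidermal growth factor receptor and its feedback, those that passed were lower. Ligands such as amphiregulin activate the receptor, and the MAP kinases downstream induce inhibitors that dampen it. Of 25 members 8 were lower and 0 higher (32% called, against 7.77% of all genes), with a median of -0.31. AREG, the ligand amphiregulin, had 655, 399.7, 821 and 482 CPM and was lower at -0.74 (SE 0.11, adjusted p = 4.16e-09, edgeR), and both replicate 2 libraries lay below both replicate 1 libraries. The receptors EGFR and ERBB2 were lower at -0.31 and -0.38. EGFR had 1150.2, 1007, 1187 and 881 CPM, its adjusted p was 0.0489, and the call was lost with DESeq2, the length and GC correction, library size and no filter. Of the feedback inhibitors, ERRFI1 had 106, 75.1, 125 and 78 CPM and was lower at -0.59 (adjusted p = 6.34e-05), and DUSP5, SPRED1, SPRY1 and SPRY4 were lower at -0.69, -0.40, -1.33 and -0.94. The 2 last had mean levels below 5 CPM. The calls of ERBB2 and SPRED1 were lost in each of DESeq2, limma-voom, library size, no filter and the length and GC correction. With DESeq2, 2 members passed, and all were lower. Lower members numbered 3 with library size, 3 with the length and GC correction, 4 with limma-voom and 5 with no filter.

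Of the immediate early genes, which respond to serum within minutes, 1 of 25 passed (4%, below the 7.77% of all genes). This was EGR1, and it was higher at 68.8, 74, 67.5 and 102 CPM (0.35, adjusted p = 0.0452, edgeR). The list's median was -0.26, below 0, and EGR1 was not called by any of DESeq2, limma-voom, library size, no filter or the length and GC correction.

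TGF-beta targets had 6 lower and 0 higher members of 24 (25% called, against 7.77% of all genes), with a median of -0.29, and 5 passed with DESeq2. BHLHE40, a transcriptional repressor, had 68.7, 39.4, 44.5 and 21.4 CPM and was lower at -0.93 (SE 0.13, adjusted p = 2.52e-09, edgeR). ITGA2, a collagen receptor, had 1984, 1362, 913 and 646 CPM and was lower at -0.52. INHBA and LTBP2 were lower at -0.82 and -0.39. FN1, the fibronectin gene and the list's most abundant member, had 16188, 20139, 15343 and 14017 CPM and did not pass (0.092, 0.32 in Ctrl and -0.13 in shSTAU1).

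YAP/TEAD targets, which follow cell spreading and density, had 4 lower and 0 higher members of 23, which is 17.4% called against 7.77% of all genes. With DESeq2 2 were lower, against 1.14% of all genes. F3, the tissue factor that starts coagulation, had 1509, 1024, 1580.2 and 1034 CPM and was lower at -0.59 (adjusted p = 5.75e-06, edgeR). CCN1, a matricellular protein, had 1651, 1089, 1006 and 802 CPM and was lower at -0.46. GADD45A was lower at -0.53, and ANKRD1 at -0.35, where the value was -0.72 in Ctrl and 0.038 in shSTAU1. The median of the list was -0.13.

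**Figure D3:**
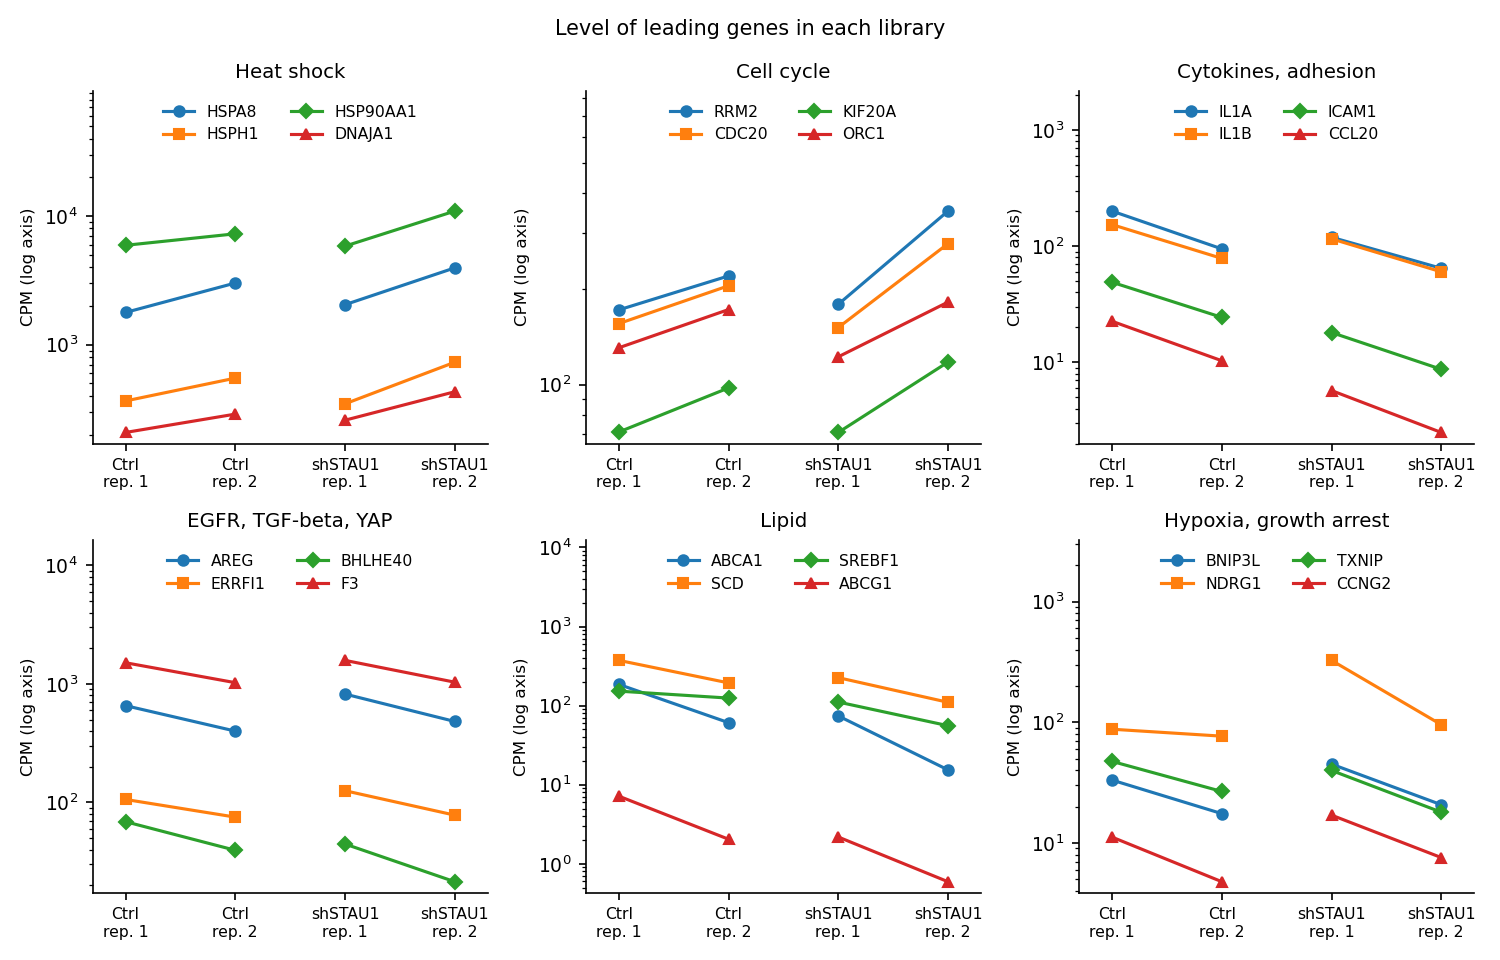
Points give the TMM-scaled CPM (log axis) of 24 named genes in each of the 4 libraries, and lines join replicate 1 to replicate 2 within an arm. The heat shock and cell cycle genes shown slope up and the other genes shown slope down in both arms.

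The genes of lipid metabolism that passed were lower in replicate 2. Liver X receptors sense oxidised cholesterol and turn on its export and fatty acid synthesis, and this list was drawn up after the values were seen, so its count is a description. Of 11 measured members 6 were lower, where 4.64% of all genes were. ABCA1 (ENSG00000165029, chromosome 9, 104781002 to 104928237), the transporter that loads cholesterol on apolipoproteins, had 186, 60.9, 74.1 and 15.4 CPM, with a log2 difference of -1.92 (SE 0.13, adjusted p = 4.35e-48, edgeR). The value was -1.61 in Ctrl and -2.26 in shSTAU1, and it was the second largest fall among genes with at least 5 CPM. ABCG1, a second exporter, had 7.17, 2.05, 2.18 and 0.594 CPM and was lower at -1.83. APOE and PLTP, which carry and transfer lipids, were lower at -1.40 and -0.72, and PLTP was -0.25 in Ctrl and -1.14 in shSTAU1. NR1H3, a liver X receptor gene, had 0.892, 2.11, 5.4 and 2.49 CPM, with no call and opposite signs in the arms (1.23 and -1.11).

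SCD, which desaturates fatty acids, had 374, 194, 226 and 110.3 CPM and was lower at -0.99 (SE 0.11, adjusted p = 3.17e-15, edgeR), and both replicate 2 libraries lay below both replicate 1 libraries. SREBF1, the transcription factor of fatty acid synthesis, had 153, 125, 111 and 55.8 CPM and was lower at -0.64, with -0.29 in Ctrl and -0.99 in shSTAU1. The fatty acid list had 4 lower members of 15, against 4.64% of all genes (2 with DESeq2), while its most abundant gene FASN, the synthase, did not pass (1622, 1342, 1173 and 1048 CPM, -0.22). Of 24 genes of cholesterol synthesis and uptake 2 were lower, SREBF2 at -0.54 and INSIG1 at -0.58, a share of 8.33% beside 7.77% of all genes, and 1 passed with DESeq2.

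Lysosomal genes had 6 lower and 0 higher members of 27, which is 22.2% called against 7.77% of all genes. With DESeq2 3 were lower, against 1.14% of all genes. GAA, the acid alpha-glucosidase, had 90.6, 58.7, 53.5 and 26.1 CPM and was lower at -0.83 (adjusted p = 2.71e-08, edgeR), the cathepsin CTSH had 32.6, 22.1, 55.7 and 27.3 CPM and was lower at -0.80, and PSAP, the saposin precursor, had 1389, 1256, 1954 and 1129 CPM and was lower at -0.47. The PSAP difference was -0.15 in Ctrl and -0.79 in shSTAU1.

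Hypoxia-inducible factor targets had 8 lower and 0 higher members of 21 (38.1% called, against 7.77% of all genes), with a median of -0.40, and 3 passed with DESeq2. BNIP3L, a receptor of mitophagy, had 33.1, 17.5, 45 and 20.7 CPM and was lower at -1.02 (SE 0.15, adjusted p = 2.7e-09, edgeR), with both replicate 2 libraries below both replicate 1 libraries. NDRG1, a gene induced by hypoxia and by arrest, had 87.5, 76.6, 326 and 95.4 CPM, and its difference of -0.99 was mostly in the shSTAU1 arm (-0.19 in Ctrl and -1.77 in shSTAU1). This call was lost with DESeq2. PDK1, the kinase that closes pyruvate dehydrogenase, and VEGFA, the vascular growth factor, were lower at -0.64 and -0.42. P4HA1, KDM3A and BNIP3 were lower at -0.45, -0.43 and -0.35, and MXI1, an antagonist of MYC, at -1.17. Of 18 glycolytic genes 0 passed with edgeR's test and 0 with DESeq2, with 4 at an unadjusted p under 0.05 in edgeR, and ENO1, the most abundant, had 1864, 1726, 2249 and 2337 CPM.

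A list of FOXO-associated growth-arrest genes, FOXO1, FOXO3 and FOXO4 among them, was drawn up after the values were seen. Of its 19 measured members 8 were lower and 0 higher, against 4.64% and 3.13% of all genes. Which factor drives each member was not tested. TXNIP, which binds thioredoxin and limits glucose uptake, had 47.3, 26.7, 39.8 and 18 CPM and was lower at -0.99 (adjusted p = 2.84e-09, edgeR). CCNG2, a cyclin of arrested cells, had 11.2, 4.76, 17 and 7.56 CPM and was lower at -1.20 (adjusted p = 1.17e-06), at -1.22 in Ctrl and -1.17 in shSTAU1. RBL2, the pocket protein of quiescence, had 75.5, 66.3, 118 and 79.7 CPM and was lower at -0.38, with -0.19 in Ctrl and -0.57 in shSTAU1. KLHL24, YPEL3 and YPEL5 were lower at -0.89, -1.52 and -0.84. In Ctrl and shSTAU1, KLHL24 was -0.36 and -1.43, YPEL3 -0.93 and -2.02 and YPEL5 -0.64 and -1.04. FOXO1 and FOXO3 themselves had values of -0.66 and -0.10 and did not pass. With DESeq2, 3 members passed.

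Antioxidant targets of NRF2 had 6 lower members and 1 higher member of 26, which is 26.9% called against 7.77% of all genes. With DESeq2 1 was lower, against 1.14% of all genes. SLC7A11, the cystine importer, had 163, 111, 82.9 and 61.9 CPM and was lower at -0.49 (adjusted p = 0.00169, edgeR), and ALDH1L2, a mitochondrial folate enzyme that ATF4 drives, had 82.4, 48.1, 33.9 and 22 CPM and was lower at -0.70. FTH1, the ferritin heavy chain, had 1213, 1141, 4004 and 2276 CPM, with -0.088 in Ctrl and -0.81 in shSTAU1. Of 21 ATF4 targets 2 were lower and 0 higher (9.52% called, beside 7.77% of all genes).

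Some genes of the squamous programme were lower in replicate 2. All 11 squamous epithelium markers were measured, KRT5 with 108820, 110892, 191041 and 172929 counts, and 5 of them were lower, where 4.64% of all genes were. With DESeq2 3 of these markers were lower, against 1.14% of all genes. The summed marker level was 9274, 8496, 12058 and 8915 CPM. KRT14, the basal keratin that pairs with KRT5, had 802, 559, 1625 and 901 CPM and was lower at -0.69 (SE 0.11, adjusted p = 5.61e-08, edgeR), whereas KRT5 had 3236, 3387, 5488 and 4893 CPM and did not pass (-0.05). TP63, the master factor of squamous cells, was lower at -0.43, and this call was lost with DESeq2. KRT19, a simple-epithelium keratin, had 324, 216, 612 and 268 CPM and was lower at -0.89. KRT15, a basal keratin, had 15.9, 12.2, 39.9 and 10.5 CPM and was lower at -1.17. It was -0.39 in Ctrl and -1.93 in shSTAU1. KRT17 was lower at -0.47, with -0.029 in Ctrl and -0.90 in shSTAU1. The keratin list had 4 lower and 1 higher of 15 measured members (33.3% called, against 7.77% of all genes), and the higher one was KRT6B, on 0, 14, 12 and 58 counts. With DESeq2 0 keratins were higher and 2 lower, and KRT15 and KRT17 did not pass.

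Of 25 measured differentiation genes, which upper layers of the epithelium express, 7 were lower and 0 higher (28% called, against 7.77% of all genes), with a median of -0.59 (-0.37 in Ctrl and -0.81 in shSTAU1). With DESeq2 3 were lower, and 5 with library size and with the length and GC correction. DSC2, a desmosomal cadherin, had 77.6, 54.6, 73.4 and 34.4 CPM and was lower at -0.80 (adjusted p = 6.92e-08, edgeR). The serpins SERPINB3 and SERPINB4 are near-identical neighbours that can share reads. SERPINB3 had 1.43, 1.01, 12.6 and 1.84 CPM. SERPINB4 had 1.31, 0.641, 7.38 and 0.594 CPM. Their fitted differences of -1.84 and -2.45 rest on their high level in shSTAU1 replicate 1. In Ctrl the differences were -0.50 and -1.01. SERPINB13, KLK10, KLK13 and the factor GRHL3 were lower at mean levels below 5 CPM. KLK6, the most abundant member, had 40, 36.4, 92.1 and 80.4 CPM and did not pass.

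The cell adhesion genes that passed edgeR's test were lower. CDH1, the epithelial cadherin, had 878, 709, 826 and 474 CPM and was lower at -0.56 (SE 0.11, adjusted p = 3.4e-05, edgeR), at -0.31 in Ctrl and -0.80 in shSTAU1. JUP, CDH3 and DSC3 of adherens junctions and desmosomes were lower at -0.52, -0.35 and -0.55, and in total 4 of 25 adhesion genes were lower, against 4.64% of all genes (1 with DESeq2). In Ctrl and shSTAU1, JUP was -0.22 and -0.81 and DSC3 -0.43 and -0.67. ITGA3, the laminin receptor subunit, had 902, 616, 716 and 457 CPM and was lower at -0.60 (adjusted p = 4.8e-06). The laminin chains LAMC1 and LAMB1 were lower at -0.38 and -0.35, and the perlecan gene HSPG2 at -0.46. Of the 22 basement membrane genes 5 were lower and 0 higher (22.7% called, against 7.77% of all genes), 2 were lower with DESeq2, and 2 were lower and 1 higher with the length and GC correction. The median of the list was -0.11, and it was 0.043 with the length and GC correction. The linker PLEC, the most abundant, did not pass (0.16), and it was the higher gene with the length and GC correction.

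Of 18 mesenchymal genes 1 was higher and 3 lower (22.2% called, against 7.77% of all genes), with a median of 0.012. ITGA5, the fibronectin receptor, had 138, 91.4, 73.9 and 41.4 CPM and was lower at -0.71, MMP14, the membrane collagenase activator, had 151, 109, 164 and 95.2 CPM and was lower at -0.63, and LOXL2 was lower at -0.35. Vimentin (VIM) was higher by 0.46, with 0.033 in Ctrl and 0.94 in shSTAU1. The calls of LOXL2 and VIM were lost in each of DESeq2, limma-voom, library size, no filter and the length and GC correction. Each of these settings left 0 higher and 2 lower mesenchymal genes. Of 23 matrix proteases and inhibitors 2 were higher (MMP1 and SERPINE2) and 6 lower, against 3.13% and 4.64% of all genes. With DESeq2 0 were higher and 3 lower, and the call of SERPINE2 was also lost with limma-voom, library size, no filter and the length and GC correction. SERPINB2, which inhibits urokinase, had 49.8, 27.5, 34.4 and 14.2 CPM and was lower at -1.06 (adjusted p = 1.93e-10, edgeR).

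**Figure D4:**
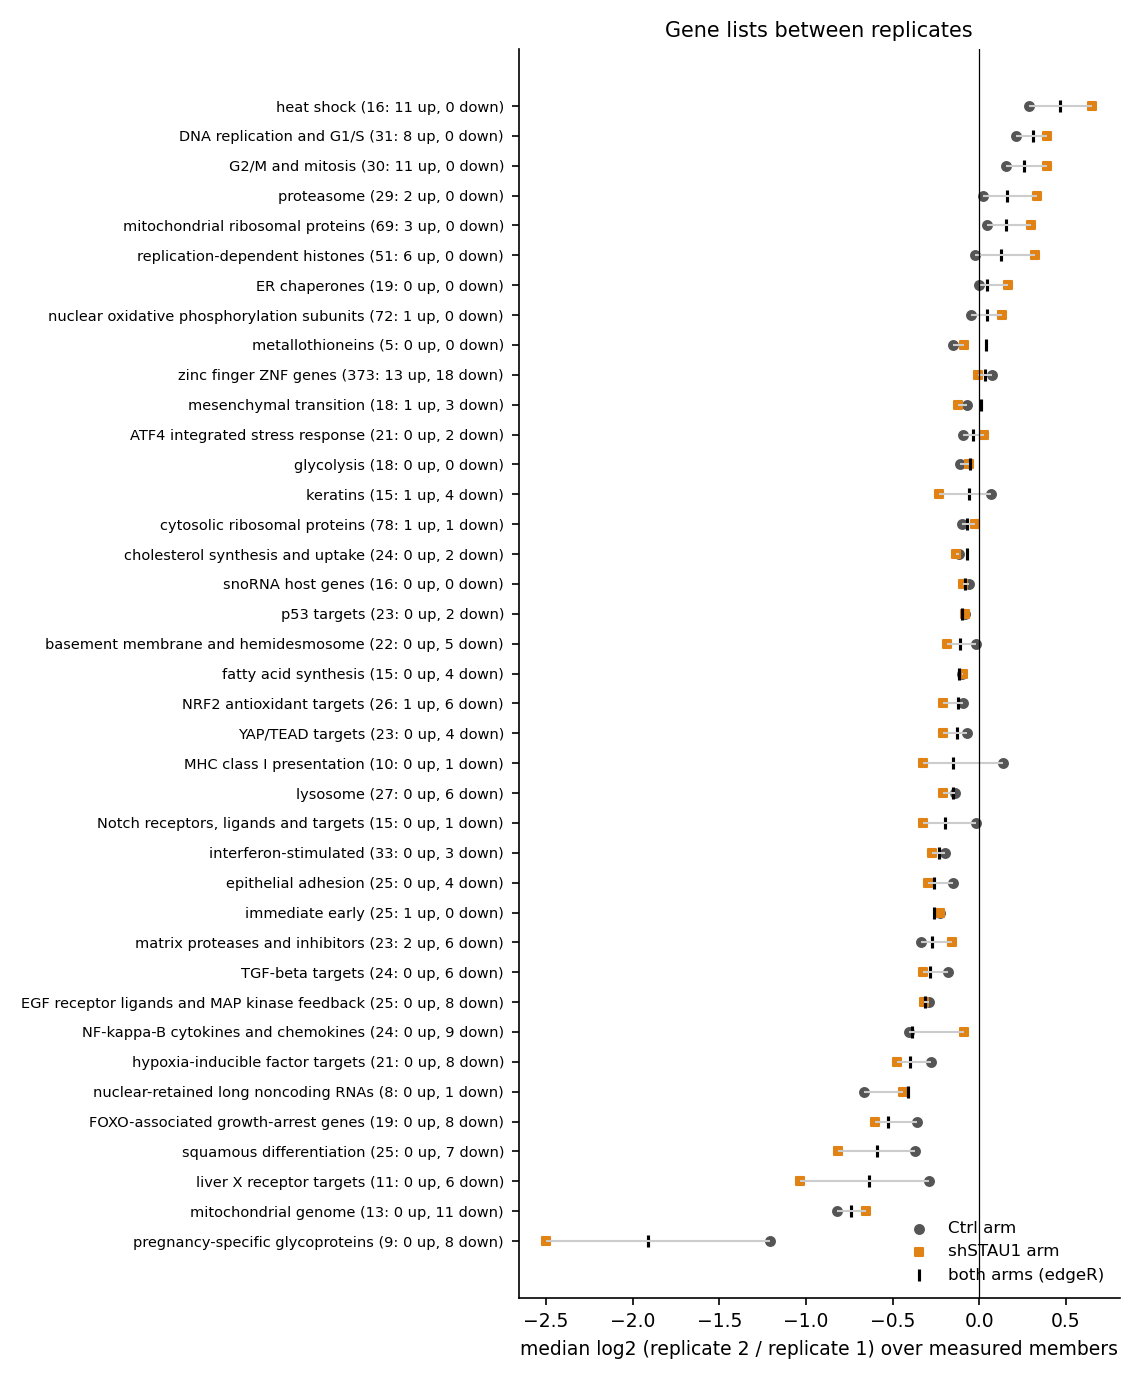
Median log2 ratio of replicate 2 to replicate 1 over the measured members of each gene list, in the Ctrl arm (circles), the shSTAU1 arm (squares) and the edgeR fit of both (bars), with the number measured and called higher and lower in brackets. Heat shock, with a fitted median of 0.46, stands at the top, and mitochondrial mRNAs, with -0.74, near the bottom.

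The 12 largest rises and 12 largest falls were taken among called genes with at least 5 CPM on average and the same sign in both arms. MMP1 (ENSG00000196611, chromosome 11, 102789920 to 102798160), interstitial collagenase, had 204, 348, 127 and 546 CPM and a log2 difference of 1.44 (SE 0.12, adjusted p = 8.73e-32, edgeR). It was 0.77 in Ctrl and 2.11 in shSTAU1, and the call was lost with DESeq2. RELN (ENSG00000189056, chromosome 7, 103471784 to 103989516), the secreted glycoprotein reelin, had 198, 369, 132 and 387 CPM and was higher by 1.22 (adjusted p = 1.65e-23), and both replicate 2 libraries lay above both replicate 1 libraries. ANXA10, an annexin, had 4.52, 15.3, 0.776 and 8.72 CPM, the largest rise among genes with at least 5 CPM on average (2.46, 1.76 in Ctrl and 3.47 in shSTAU1). DOCK4, an exchange factor for small GTPases, had 5.03, 9.71, 2.21 and 9.2 CPM and was higher by 1.47 (0.95 in Ctrl and 2.05 in shSTAU1). CCNA1, the A-type cyclin of germ cells, had 6.16, 11, 4.11 and 15.5 CPM and was higher by 1.37 (0.84 and 1.92). DIO2, the deiodinase that activates thyroid hormone, had 6.01, 16.4, 18.6 and 27 CPM and was higher by 0.97 (1.44 and 0.54). TENM3, GCNA, ZNF860, MYH15, LPAL2 and LRRC37A3 completed the 12 largest rises, at 0.96 to 1.45, and LPAL2 and LRRC37A3 have close relatives that can share reads. In Ctrl and shSTAU1, TENM3 was 0.75 and 1.74, GCNA 0.43 and 1.78, ZNF860 0.42 and 1.89 and MYH15 0.47 and 1.58. LPAL2 was 1.47 and 1.44, and LRRC37A3 1.39 and 0.99. The calls of TENM3, GCNA and MYH15 were lost with DESeq2.

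Among the largest falls, NOTCH3, a receptor of the Notch pathway, had 22, 10.1, 41.4 and 10.8 CPM and was lower at -1.54 (SE 0.17, adjusted p = 9.17e-17, edgeR), with both replicate 2 libraries below both replicate 1 libraries. It was the 1 called gene of 15 measured Notch genes, a list added after the values were seen (6.67% called, beside 7.77% of all genes). NOTCH1, NOTCH2 and the target HES1 had values of -0.051, -0.035 and -0.25 and did not pass, and NOTCH1 and NOTCH2 were above 0 with the length and GC correction. C1S, a complement protease, had 16.5, 9.16, 27.7 and 7.24 CPM and was lower at -1.39. COL6A2, a collagen VI chain, had 6.42, 3.08, 9.42 and 2.69 CPM and was lower at -1.44. MYH14, a nonmuscle myosin, SEL1L3 and TCP11L2 were lower at -1.46, -1.46 and -1.43, and MYH14 was -0.66 in Ctrl and -2.30 in shSTAU1. NEAT1, the RNA scaffold of paraspeckles, had 55.5, 26.4, 32.3 and 15.5 CPM and was lower at -1.06 (adjusted p = 1.11e-10), with -1.07 in Ctrl and -1.06 in shSTAU1, while MALAT1, its neighbour on chromosome 11, had 7351, 6862, 6229.7 and 4433 CPM and did not pass. NEAT1 was the 1 called of 8 measured nuclear-retained RNAs (12.5% beside 7.77% of all genes).

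The pregnancy-specific glycoproteins, secreted members of the CEA family in 1 cluster on chromosome 19, had 8 lower members of 9 measured, against 4.64% of all genes. PSG5 had 9.13, 3.94, 14 and 2.97 CPM and was lower at -1.72. PSG6 had 11.1, 4.03, 8.79 and 3.57 CPM and was lower at -1.38. The list was added after the values were seen, its members are alike in sequence and can share reads, and 3 passed with DESeq2. NPIPB5 and KRT16P6, a member of a duplicated family and a keratin pseudogene, were also among the largest falls. The NPIPB5 difference was -3.79 in Ctrl and -0.57 in shSTAU1, so that its size rests on Ctrl replicate 2 at 42.6, 3.05, 35.8 and 24 CPM, and KRT16P6 had 5.5, 2.63, 32.1 and 8.91 CPM.

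Markers of other cell types were at 0 counts for some genes and measurable for others. Of 10 fibroblast markers, THY1 and POSTN had 0 counts and COL3A1, DCN and LUM at most 1 in any library, while COL1A1 had 527, 663, 273 and 221, FAP 305, 280, 525 and 256 and COL1A2 40, 55, 75 and 128 counts. PDGFRA and PDGFRB had at most 23 counts. Of the 5 tested fibroblast markers 0 were called by edgeR and 0 by DESeq2, with 2 at an unadjusted p under 0.05 in edgeR. Of 7 endothelial markers, CLDN5 had 0 counts, PECAM1 and KDR at most 2, and TIE1 and TEK at most 14 and 24. CDH5, the endothelial cadherin, had 149, 230, 159 and 152 counts and did not pass (0.29), and VWF, the von Willebrand factor gene, had 457, 270, 432 and 110 counts and was lower at -1.32. Of 10 leukocyte markers, CD3D, CD68 and MS4A1 had 0 counts and PTPRC at most 1, while CD8A had 43, 48, 65 and 21. The part of such cells in the results was not tested. The summed level was 27, 31.3, 26.1 and 17.4 CPM for fibroblast, 18.1, 15.4, 17.4 and 8.12 for endothelium and 1.64, 2.54, 3.1 and 1.81 for leukocyte markers. The most abundant genes were COL1A1, VWF and CD8A.

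Differences were spread over the genome. The median log2 difference of the genes on each nuclear chromosome lay within -0.021 and 0.058, and the share called ran from 5.36% on chromosome 4 to 11.1% on chromosome 19. Across genes, the Spearman coefficient of the difference with GC content was 0.035 in Ctrl and -0.16 in shSTAU1, and with log2 CPM it was 0.012 and 0.14. The part of these trends in the gene lists was not tested beyond the length and GC correction, which called 719 genes (309 higher and 410 lower), 700 of them among the 1112. Of 373 zinc finger genes 13 were higher and 18 lower, a share of 8.31% beside 7.77% of all genes. Metallothionein genes and snoRNA host genes had 0 called of 5 and 0 of 16 with edgeR and with DESeq2, and 0 and 1 of them had an unadjusted p under 0.05 in edgeR. In the list of MHC class I presentation 1 of 10 was lower, HLA-B, on 16, 0, 12 and 3 counts, too few for a fold to be read.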

How the data were processed

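RNA-sequencing libraries of Ctrl and shSTAU1 SAS cells (2 each) were made with an RNA exome capture kit. The authors deposited counts per gene as whole numbers, not normalized. The submitters' processing notes name Partek and hg38, and the versions, the annotation release and the strand setting are not given in the sources used here, so overlapping and antisense genes cannot be told apart. Of 67008 gene identifiers, 42044 had a symbol and 58561 were in GENCODE 29, which gave positions on hg38. No sample column was left unmapped.

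Genes passed filterByExpr (at least 10 counts, 15 in total) by shRNA arm, and 14303 remained. Replicate number was tested with the shRNA as a block by edgeR 4.0.16's quasi-likelihood test in R 4.3.3, with TMM scaling, Benjamini-Hochberg adjustment over all genes and a threshold of 0.05. The biological coefficient of variation was 12.5%. The prior degrees of freedom were infinite for all genes, so every gene took the shared spread. The smallest two-sided p of an exact permutation of 2 libraries against 2 is 0.333. With 1 library per arm and replicate, the shared spread comes from the part in which the arms differed. The p-values thus set the replicate difference against that part, and not against a spread between libraries of the same arm and replicate. Within an arm, differences are log2 ratios of CPM with a prior count of 0.5, from 1 library each and without a test. No interaction can be tested with 1 library per cell of the design. Lists were described by counts and medians beside those of all genes, without a set test.

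Genes were named by a rule, namely the 12 largest rises and 12 largest falls with a symbol, at least 5 CPM and the same sign in both arms, up to 3 called members with the smallest p and the most abundant member of each list, STAU1, SNX5 and ADAM10, and 3 genes of at least 10 CPM with opposite signs in the arms. Other called members were named after their values were seen. Some genes that the rule covers are not reported here. The members, the lists and the comparison were chosen with earlier results of these data known, and the lists of liver X receptor targets, pregnancy-specific glycoproteins, Notch genes and FOXO-associated genes were added after the values of this comparison were seen. Alternatives were DESeq2 1.42.0, limma-voom (limma 3.58.1), no filter, no shRNA block, library size instead of TMM, a correction of each library for transcript length and GC content (99.0% of tested genes), an adjusted p of 0.10, an unadjusted p of 0.05 joined to a 1.5-fold change, a test against a fold change of 1.2 and leaving out each library. A robust prior was added later and gave the same counts. The fit was tested on simulated counts. Promoter windows came from RefSeq (GRCh38.p14) and were searched in Python 3.11.15.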

Additional observations from a re-analysis of the deposited data

Results flagged for a closer look

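Genes and lists whose replicate difference pointed up in the Ctrl arm and down in the shSTAU1 arm, or the reverse, are given here. Lists are given where both medians were at least 0.1 in size over at least 5 measured members, without the lists added after the values were seen. With 1 library per replicate in each arm this difference between the arms was not tested.

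ALPP, the placental alkaline phosphatase, had 34.3, 51.8, 108 and 49.8 CPM, a log2 difference of 0.60 in Ctrl and -1.12 in shSTAU1. CXCL1, a neutrophil chemokine, had 25.4, 17.6, 4.48 and 7.36 CPM, with -0.53 in Ctrl and 0.71 in shSTAU1, and it thus went against IL1A and IL1B in the shSTAU1 arm. PDXDC2P-NPIPB14P, a read-through of duplicated genes that can share reads with its copies, had 9.61, 15.5, 12.2 and 6.14 CPM, with 0.69 in Ctrl and -0.98 in shSTAU1. These 3 genes were picked as the largest opposite pairs of at least 10 CPM, and none of them passed the test of the replicate term, with adjusted p of 0.199, 0.957 and 0.805 from edgeR. The median of the 10 measured genes of MHC class I presentation was 0.14 in Ctrl and -0.32 in shSTAU1. The median of the 5 measured fibroblast markers was 0.37 in Ctrl and -1.06 in shSTAU1. Their counts ran from 20, 6, 13 and 2 for PDGFRA to 527, 663, 273 and 221 for COL1A1.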

How the results depend on the processing

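The number of genes called between replicates depended on the model. It was 612 with library size in place of TMM (192 higher, 420 lower), 719 with the length and GC correction, 249 with DESeq2, 335 against a fold change of 1.2 and 0 without the shRNA block, beside 1112. It was 872 without the filter, 863 with limma-voom and 1620 at an adjusted p of 0.10. No gene of the 1112 changed its sign in these fits. Without a test, 2140 genes differed by at least 1.5-fold in the fit and 2411 to 3247 when 1 library was left out, which leaves the difference within 1 arm. Leaving out the 4 lists added after the values were seen, the number of lists with a median of at least 0.25 in size was 17, and 10 to 19 when 1 library was left out. The shRNA term called 4087 genes with the replicate block and 372 with no replicate block. The replicate numbers are shared by the arms, but the labels do not say that they pair the libraries, and with 2 pairs the correlation of 0.23 across genes is only a hint.

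Of the 244 genes that the naming rule covers or the text gives, 168 were called. All 168 calls were lost without the shRNA block, 80 with DESeq2, 42 with library size, 41 with the length and GC correction, 21 without the filter and 17 with limma-voom. The calls of ATP5MC1, BNIP3, EGR1, ERBB2, FEN1, LOXL2, POLA1, PSMC6, RPS26, SERPINE2, SPRED1 and VIM were lost in each of these settings. MALAT1 and MKI67 gained a call without the filter and with limma-voom, and PLEC with the length and GC correction. The calls lost with DESeq2 were those of ACSS2, ADAM10, ANKRD1, ANLN, ATP5MC1, AURKA, BIRC5, BNIP3, CCNB1, CDC25A, CDCA8, CDH3, DSC3, DUSP5, EGFR, EGR1, ERBB2, FEN1, FKBP4, FOXM1, FTH1, GADD45A, GCNA, GRHL3, H2AC16, H4C13, HMMR, HSP90AA1, HSP90AB1, HSPD1, HSPG2, IFIT3, INSIG1, JUP, KDM3A, KIF2C, KLHL24, KLK10, KLK13, KRT15, KRT17, LAMB1, LAMC1, LIF, LOXL2, LTBP2, MMP1, MRPL51, MRPS18C, MYH14, MYH15, NDRG1, NPIPB5, P4HA1, PLK1, PLTP, POLA1, PSAP, PSG1, PSG2, PSMC3, PSMC6, PTGS2, RBL2, RPL12, RPS26, SERPINE2, SPRED1, SPRY1, SPRY4, TENM3, TP63, TYMS, UHRF1, VEGFA, VIM, YPEL3, YPEL5, ZNF222 and ZNF469. For 8 more called genes (HLA-B, HMOX1, KRT6B, PSG11, PSG7, PSG8, SERPINB13 and TP53INP1) DESeq2 gave no adjusted p. Values that changed sign were NR1H3 with DESeq2 (0.0225), HES4, NOTCH1 and NOTCH2 with the length and GC correction (0.00889, 0.117 and 0.0263), H2BC18 without the shRNA block (0.00346), CXCL1 without the shRNA block (-0.262) and with limma-voom (-0.159), and the replicate difference of STAU1 with library size (-0.00784), none of which was called. When 1 library was left out, the called genes ANKRD1 and PTGS2 ranged from -0.726 to 0.038 and from -1.99 to 0.35, and both were above 0 without either Ctrl library. HLA-B and KRT6B were called on few counts, and their fitted differences are imprecise. Causes of these changes were not tested.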
